A study of Mus musculus with 46 samples.

Results

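Binding of CEBPb was set against binding of CEBPa in the livers of 4 male CD-1 mice, D1 to D4, that were 8 weeks old and had received TCPOBOP at 3 mg/kg 27 h before the tissue was taken. Each liver gave 1 chromatin immunoprecipitation library per factor, and all 8 libraries were sequenced on the same lane, so 8 of the 46 peak lists of the series were compared. The members were taken from the labels alone: 4 CEBPb lists and the 4 CEBPa lists of the same animals. Merging of peaks that shared 1 bp or more over the 8 lists gave 83687 regions. Beside them stood the CEBPb and CEBPa lists of 4 vehicle livers of the same age, time and lane (C1 to C4), the RXR lists of the same 8 livers on another lane of that flow cell, and the CEBPb and CEBPa lists of 6 livers from mice 7 weeks old taken 3 h after TCPOBOP or vehicle (3 of each), on another flow cell. All mice were wild type, the vehicle was DMSO in corn oil, and whole frozen liver was used, so the lists hold hepatocytes together with the other cells of the organ.

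CEBPa and CEBPb are basic leucine zipper factors. Both recognise the same kind of DNA element and can bind it as homodimers or as heterodimers with each other. In liver, CEBPa is known for maintaining the metabolic programme of the quiescent hepatocyte, while CEBPb is known for its part in the acute phase response, gluconeogenesis and liver regeneration. TCPOBOP is an agonist ligand of the nuclear receptor CAR, which binds DNA as a heterodimer with RXR and drives drug metabolism genes and liver growth in mice. The lists allow 3 questions to be asked: how far the binding of CEBPa and CEBPb overlapped in the same liver, whether regions listed for one factor in every liver kept that property in other animals, and whether RXR was found at them.

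The CEBPb lists were longer than the CEBPa lists in every TCPOBOP liver. The CEBPb lists held 51588, 55513, 45877 and 48849 peaks in livers D1 to D4. The CEBPa lists of these livers held 29066, 28818, 28825 and 20396 peaks. The shortest CEBPb list was longer than the longest CEBPa list, and the CEBPa list of D4 lay far below the other CEBPa lists. The ratio of CEBPb to CEBPa peaks was 1.77, 1.93, 1.59 and 2.40 in D1 to D4. On the log2 scale the lists differed by 0.93 (exact two-sided permutation test over 70 assignments, p = 0.0286, the smallest this design allows). Benjamini-Hochberg adjustment over 40 tests gave p = 0.0635 for that permutation test. An exact permutation test with factors exchanged only within a liver gave p = 0.13, again the smallest possible. No adjusted p of a comparison of 4 lists with 4 lists came below 0.05.

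**Figure D1:**
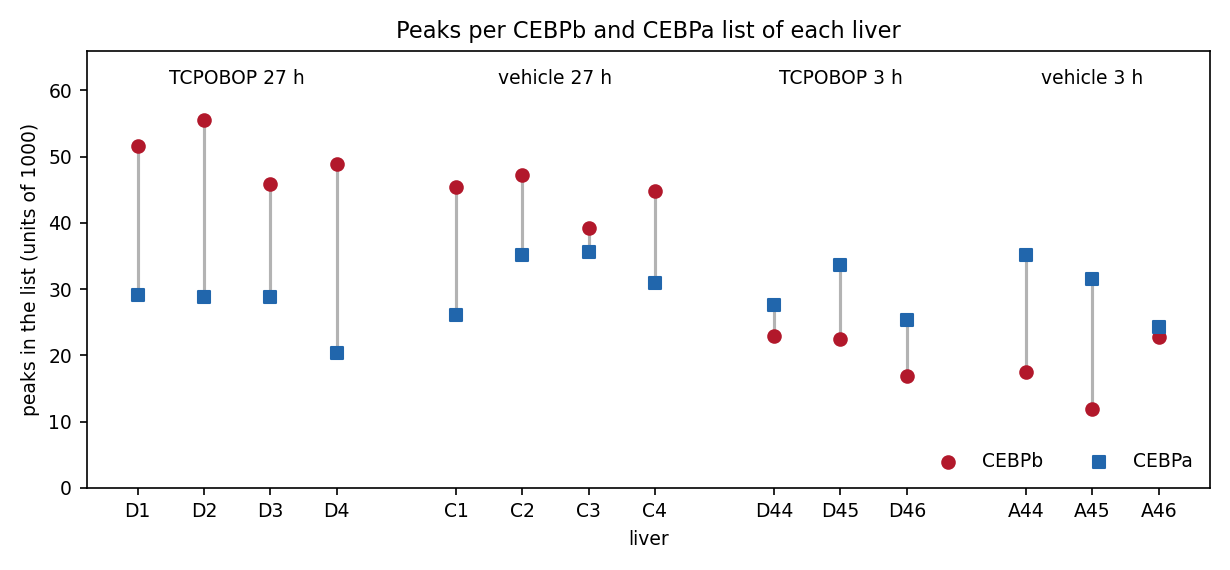
Number of peaks (in units of 1000) in the CEBPb list (circles) and the CEBPa list (squares) of each liver, joined by a line per liver. CEBPb lists are the longer ones in all 8 livers of 27 h and the shorter ones in all 6 livers of 3 h.

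The same order was present in vehicle livers of 27 h, where the ratio of CEBPb to CEBPa peaks was 1.74, 1.34, 1.10 and 1.45 in C1 to C4. The ratios of the treatments overlapped, with C1 above D3. The mean log2 ratio was 0.93 ± 0.25 after TCPOBOP and 0.47 ± 0.27 after vehicle (SD, n = 4 each), a difference of 0.45 (exact two-sided permutation test over livers, p = 0.0571; adjusted p = 0.109). At 3 h the ratio lay below 1 in all 6 livers, from 0.378 to 0.937. The plot of list lengths by liver shows this order. Depth is unknown for these lists, and no library carries a score, so a longer list and more binding cannot be told apart.

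Peaks of CEBPb were also slightly wider. Median widths were 271, 276, 270 and 274 bp in the CEBPb lists of D1 to D4 and 268, 265, 262 and 266 bp in the CEBPa lists. The groups did not overlap. The means differed by 7.5 bp (exact two-sided permutation test, p = 0.0286; adjusted p = 0.0635; p = 0.13 within livers).

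Most CEBPa peaks lay where the same liver also had a CEBPb peak, while the reverse held for about as many CEBPb peaks as not. A CEBPb peak overlapped 87.7%, 88.2%, 86.2% and 94.8% of the CEBPa peaks of D1 to D4. A CEBPa peak overlapped 49.3%, 45.7%, 54.1% and 39.5% of the CEBPb peaks. D4, with the shortest CEBPa list, had the highest of the first values and the lowest of the second. When the peaks of the other factor were moved by 100 kb, overlaps fell to between 0.823% and 2.17%. After the CEBPb list of each liver had been cut to the length of its CEBPa list by keeping the widest peaks, the share of CEBPb peaks with CEBPa was 71.6%, 70.2%, 72.8% and 70.3%. Vehicle livers treated in the same way gave a mean of 71.4% ± 0.748 against 71.2% ± 1.25 after TCPOBOP (SD, n = 4 each), and these did not differ beyond their spread (exact two-sided permutation test, p = 0.857; adjusted p = 0.907).

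The likeness of the lists was also read as the Jaccard index, the share of the regions of a pair of lists that both call. With full lists it averaged 0.593 over the 6 pairs of CEBPb lists, 0.535 over the 6 pairs of CEBPa lists and 0.445 over the 4 pairs of the factors within a liver. With lists of equal length these means were 0.574, 0.535 and 0.555. At equal length, then, CEBPb and CEBPa lists of the same liver overlapped as much as CEBPa lists of different livers did. Pairs within a liver spanned 0.543 to 0.575 and the pairs of CEBPa lists 0.521 to 0.548. The first kind of pair shares an animal and the second does not. The 12 pairs of the factors from different livers averaged 0.525 at equal length, from 0.482 to 0.557. That mean was below the means of the CEBPa pairs and of the CEBPb pairs.

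Regions were sorted into classes. A region was called CEBPb-specific when all 4 CEBPb lists and no CEBPa list had a peak in it, CEBPa-specific in the reverse case, and shared when all 8 lists had one. Of the 83687 regions, 3187 were CEBPb-specific (3.81% of all regions), 1 was CEBPa-specific (0.00119%) and 14420 were shared (17.2%). CEBPb lists alone called 39170 regions, CEBPa lists alone called 5435, and lists of both factors called 39082. Of the 14597 regions called in all 4 CEBPa lists, 14596 had a peak in at least 1 CEBPb list. In contrast, 27508 of the 30695 regions called in all 4 CEBPb lists had at least 1 CEBPa peak. A region in 1 list only was frequent, with 28373 such regions.

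The number of specific regions depended on list length. With lists of equal length, 226 of 54763 regions were CEBPb-specific (0.413%), 100 were CEBPa-specific (0.183%) and 11785 were shared (21.5%). In each of these livers the CEBPa list was the shorter one and stayed whole, so the cut took only CEBPb peaks, the narrower ones of each list. It follows from this that the 226 regions lay in CEBPb-specific regions of the full lists and that 99 of the 100 CEBPa-specific regions had a CEBPb peak in at least 1 full list. In 56 of the 100 all 4 full CEBPb lists had one. When the longer list was thinned at random in place of by width, the order of the specific classes turned, with 247 CEBPb-specific and 656 CEBPa-specific regions, and the shared class fell to 1101. A class that needs every list grows when a liver is left out: the CEBPb-specific count was 5598 without D1, 5132 without D2, 6275 without D3 and 4935 without D4, and the CEBPa-specific count was 7, 8, 4 and 26. The single CEBPa-specific region of the full lists lay at chr10:93081242-93081603 (mm9), with CEBPa peaks of 283, 197, 189 and 190 bp in D1 to D4, and a CEBPb peak was listed there in 2 of the 4 vehicle livers.

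**Figure D2:**
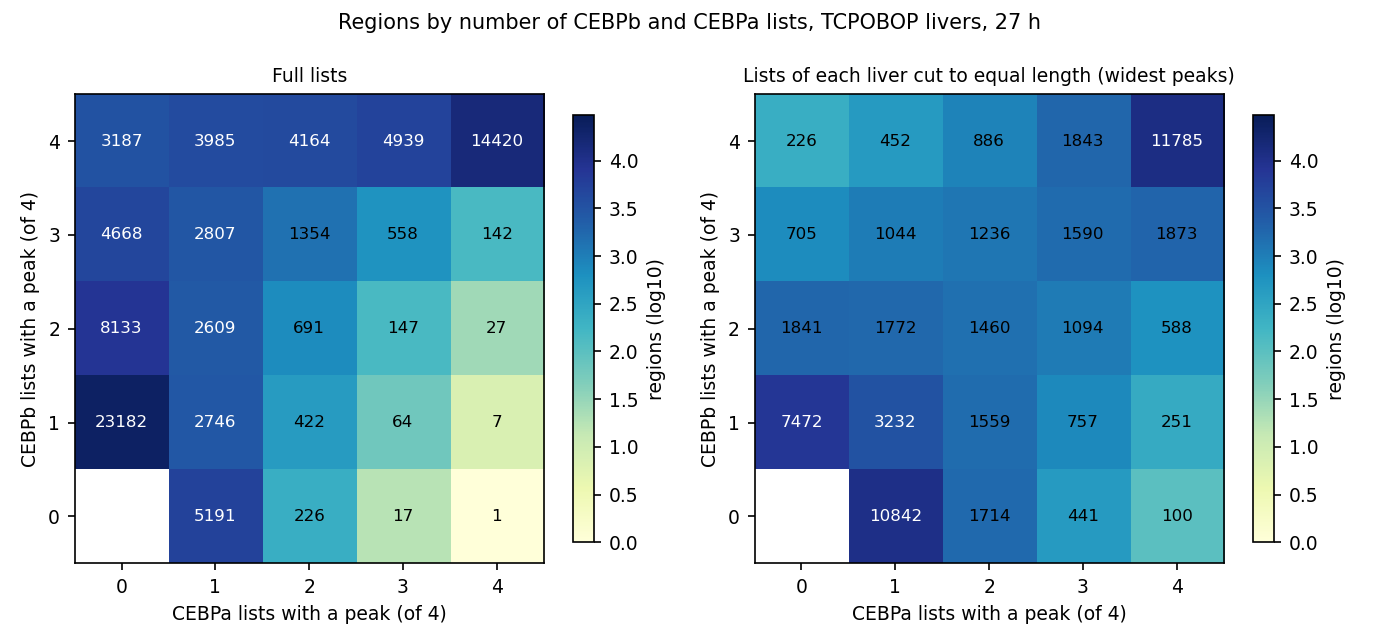
Number of regions by how many of the 4 CEBPb lists (vertical) and of the 4 CEBPa lists (horizontal) of the TCPOBOP livers had a peak, for full lists and for lists of each liver cut to equal length; color gives the log10 of the number. The upper left corner is the CEBPb-specific class (3187 and 226), the lower right corner the CEBPa-specific class (1 and 100) and the upper right corner the shared class (14420 and 11785).

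Between the corners the regions formed a graded series. With all 4 CEBPb lists, 3187, 3985, 4164, 4939 and 14420 regions had 0, 1, 2, 3 and 4 CEBPa lists. The median region width along this series was 315, 331, 344, 360 and 393 bp. Where 3 CEBPa lists were present, D4 was the missing one in 2688 of 4939 regions (54.4%), and each of the other livers was missing in 13.4% to 16.2%. The CEBPb-specific class was thus bordered by 3985 regions that missed it by 1 CEBPa peak and by 4668 regions that missed it by 1 CEBPb peak.

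CEBPb peaks in specific regions were narrow. Their median width in D1 to D4 was 248, 256, 237 and 245 bp, below the median of each whole list. In shared regions the CEBPb peaks had median widths of 340, 355, 336 and 344 bp. In shared regions with 1 peak of each factor, between 14224 and 14270 per liver, the CEBPb peak was the wider one in 77.2%, 85.9%, 77.8% and 88.5% of regions in D1 to D4. The midpoints of the CEBPb and CEBPa peaks of a liver lay a median of 15 to 17.5 bp apart. CEBPb peaks of different livers lay a median of 13 to 13.5 bp apart, and CEBPa peaks of different livers 17 to 18.5 bp.

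Overlap with CEBPa climbed with the width of the CEBPb peak and then turned down. In the narrowest decile of the CEBPb list, 9.57% ± 3.82 of peaks had a CEBPa peak in the same liver (SD, n = 4). The share was 83.3% ± 3.11 in the ninth decile and 76.0% ± 4.61 in the widest decile. The drop between these deciles was present in each liver, from 83.4% to 78.3% in D1, from 82.7% to 75.7% in D2, from 87.3% to 80.3% in D3 and from 79.7% to 69.6% in D4. In vehicle livers of 27 h the CEBPb mean also fell between these deciles, from 88.0% to 84.3%. At 3 h it did not fall, with 96.6% and 97.4% in vehicle livers and 94.4% and 95.6% in TCPOBOP livers. In the TCPOBOP livers of 27 h, CEBPa peaks had a CEBPb peak in 69.0% ± 9.71 of cases in the narrowest decile. The share was 98.0% ± 0.825 in the widest. The ninth decile of the CEBPa list gave 98.4% ± 1.03, so the turn seen for CEBPb was not present at that size for CEBPa.

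**Figure D3:**
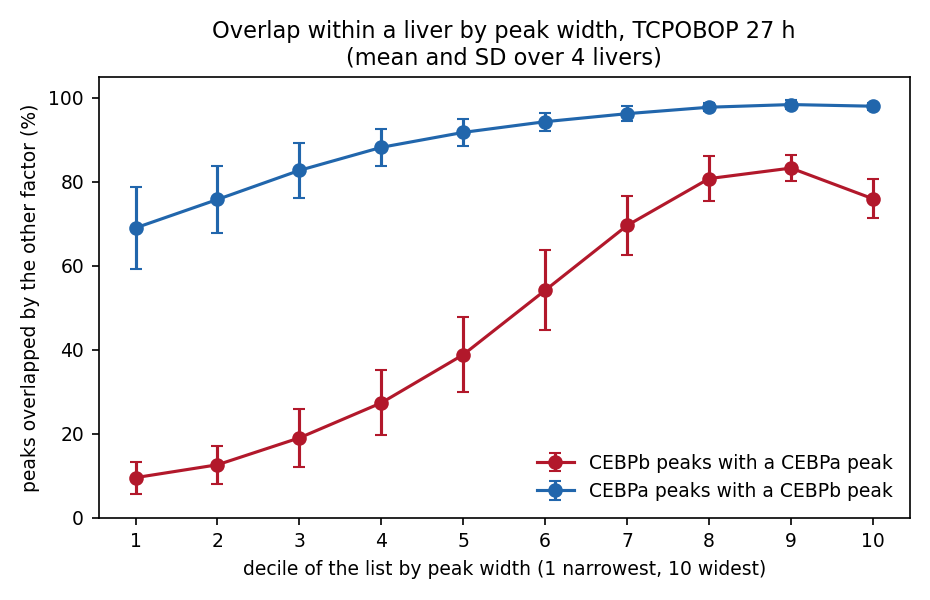
Share of the CEBPb peaks of a liver that overlap a CEBPa peak of that liver, and of CEBPa peaks that overlap a CEBPb peak, by decile of the list's own peak widths; points are means and bars SDs over the 4 TCPOBOP livers of 27 h. The CEBPb curve goes from 9.57% to 83.3% in the ninth decile and 76.0% in the widest, while the CEBPa curve goes from 69.0% to 98.0%.

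The regions are named by position only, since no annotation of mm9 was used. Among CEBPb-specific regions of equal-length lists, the one with the highest mean width percentile was chr3:121955507-121956332, with CEBPb peaks of 770, 762, 775 and 764 bp in D1 to D4 and no CEBPa peak in the full lists. RXR had a peak there in all 4 TCPOBOP livers and in 3 of the 4 vehicle livers. The next was chr19:12085620-12086798, with CEBPb peaks of 593, 714, 576 and 1179 bp and no RXR peak in any of the 8 livers. It was listed for CEBPb in all 4 vehicle livers and for CEBPa in none. The third, chr10:87348082-87348805, had CEBPb peaks of 659, 617, 680 and 636 bp, and each factor was listed there in 3 of the 4 vehicle livers. At chr9:65528851-65529528, CEBPb peaks were 596 to 678 bp wide and RXR was absent from all 8 lists. At chr11:116079587-116080253 and chr3:103605722-103606424, RXR was listed in all 8 livers.

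The other 4 of the first 10 were chr11:115274164-115275270, chr1:78139203-78139838, chr1:53127380-53128003 and chr7:105963784-105964393. None of these 4 had a CEBPa peak in a vehicle liver, and CEBPb was listed there in 4, 3, 2 and 4 vehicle livers. At 3 h, CEBPa was listed in more of the 6 livers than CEBPb at 6 of these 10 regions, among them chr3:121955507-121956332 with 5 against 2 and chr9:65528851-65529528 with 3 against 0. At 3 of the 10 both factors had the same number. Only chr7:105963784-105964393 had more CEBPb than CEBPa lists at 3 h, with 4 against 0. None of these 10 regions overlapped an input peak.

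At the CEBPa-specific regions of equal-length lists, the narrower CEBPb peaks of each list had been removed by the cut and could be read back from the full lists. The first, chr7:141719751-141720075, had CEBPa peaks of 302, 283, 270 and 319 bp, and the full lists held CEBPb peaks of 224, 221, 207 and 289 bp in the same place. The 289 bp peak, in D4, was wider than the median of 274 bp of that CEBPb list. At chr5:69859279-69859626 the CEBPa peaks were 242, 300, 346 and 265 bp wide, and CEBPb peaks of 183, 207 and 262 bp were listed in D2, D3 and D4. At chr1:56592967-56593303 and chr4:84316907-84317236 all 8 full lists held a peak. RXR was listed at none of these 4 regions in the 8 livers. The seventh in that order, chr4:40649084-40649813, had an RXR peak in 3 of the 4 TCPOBOP livers and in 3 of the 4 vehicle livers.

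Windows of 200 kb were ranked by the number of CEBPb-specific regions of the full lists in them, and those named are the extremes of that order. Whether these regions lie closer together than other regions was not tested. The window with most, chr13:23530508-23725043, held 8 CEBPb-specific regions among 31 regions, of which 1 was shared. On chromosome 19, chr19:32597563-32755876 held 8 among 23 regions, of which 9 were shared. The next 3 were chr8:73026999-73224877 with 7 of 29, chr9:45948725-46051285 with 6 of 21 and chr11:68850385-68938860 with 6 of 20. At equal length no window of that size held 3 or more. Within 10 kb of a shared region lay 25.1% of CEBPb-specific regions, 18.6% of all regions that were not shared, and 28.4% of shared regions had another one that near. By chromosome the CEBPb-specific share of regions ran from 3.17% on chromosome 12 to 4.89% on X, apart from Y with 1 of 54.

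The widest shared regions held a set that was tied to the CEBP libraries of 27 h. The first shared region by mean width percentile, chrY:2779722-2783169, overlapped an input peak and was listed in every CEBP and RXR list set beside it. The next 4 were chr14:41935822-41937571, chr15:3229124-3230464, chr3:82834785-82836087 and chr10:61533865-61535034. At the first of these the CEBPb peaks were 1661, 1693, 1750 and 1700 bp wide and the CEBPa peaks 1633, 1644, 1666 and 1659 bp in D1 to D4. These 4 regions were listed in all 16 CEBP lists of 27 h, and in none of the 12 CEBP lists of 3 h or the 14 RXR lists, those of the same 8 livers included. By comparison, chr7:87531161-87532225, sixth in that order, was listed in all CEBP lists and all 8 RXR lists of 27 h. Of the 122 shared regions whose mean width percentile reached 99, 18 (14.8%) had no peak in any CEBP list of 3 h, against 53 of the 12928 shared regions below the 90th percentile (0.410%). In all, 49 of the 14420 shared regions were in all 16 CEBP lists of 27 h and in none of the other 26. Of these 49, 15 had a mean width percentile of at least 99, 13 one of 90 to 99 and 21 one under 90. The 27 h CEBP libraries share a lane that no other library has. Over the 8 TCPOBOP lists, peak widths ran from 1633 to 1750 bp at the chromosome 14 region and from 881 to 1168 bp at the chromosome 10 region. At chr15:99239006-99240401, also in all 16 CEBP lists of 27 h and none of the other 26, they ran from 573 to 1304 bp. Whether these regions are sites of binding was not tested, since the lists hold no reads.

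Vehicle livers of 27 h, which had no part in the definition of the classes, gave the first check in other animals. The call rate is the percent of the regions of a class with a peak in a given list. At the 3187 CEBPb-specific regions the CEBPb call rate was 69.8%, 74.3%, 53.7% and 70.3% in C1 to C4, and the CEBPa call rate was 17.8%, 33.8%, 30.3% and 27.1%. Every CEBPb list lay above every CEBPa list. The means were 67.0% ± 9.10 and 27.2% ± 6.86 (SD, n = 4 each), a difference of 39.8 points (exact two-sided permutation test, p = 0.0286; adjusted p = 0.0635; p = 0.13 within livers). At all 83687 regions the means were 48.1% and 35.4%. After this difference had been subtracted, 27.1 points were left (exact two-sided permutation test, p = 0.0286; adjusted p = 0.0635; p = 0.13 within livers).

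The difference was also present at equal length, where all regions gave nearly equal rates. At the 226 CEBPb-specific regions, CEBPb was called in 64.6%, 74.8%, 64.6% and 70.8% in C1 to C4 and CEBPa in 26.5%, 41.6%, 35.4% and 36.7%, again without overlap. The means were 68.7% ± 5.00 and 35.1% ± 6.27 (SD, n = 4; exact two-sided permutation test, p = 0.0286; adjusted p = 0.0635; p = 0.13 within livers), while all 54763 regions gave 52.3% and 50.3%. At the 100 CEBPa-specific regions the order was the opposite, with CEBPb called in 27% to 62% and CEBPa in 56% to 86%. The groups overlapped there, and the mean difference of -26.5 points did not pass (exact two-sided permutation test, p = 0.0857; adjusted p = 0.156), although CEBPa was higher in each of the 4 livers.

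Classes defined in the vehicle livers were then read in the TCPOBOP livers. In vehicle livers 961 of 81043 regions were CEBPb-specific (1.19%), 26 were CEBPa-specific (0.0321%) and 16274 were shared (20.1%). At these 961 regions CEBPb was called in 81.2%, 86.6%, 78.0% and 80.2% in D1 to D4 and CEBPa in 19.98%, 20.7%, 19.4% and 9.99%. The groups lay far apart, with means of 81.5% ± 3.63 and 17.5% ± 5.04 (SD, n = 4; exact two-sided permutation test, p = 0.0286; adjusted p = 0.0635; p = 0.13 within livers). With equal length, 204 of 66548 vehicle regions were CEBPb-specific (0.307%), 114 CEBPa-specific (0.171%) and 14526 shared (21.8%). At those 204 regions the means were 56.6% ± 11.0 for CEBPb and 21.6% ± 7.73 for CEBPa, and at those 114 regions 15.6% ± 4.93 and 43.9% ± 12.7 (SD, n = 4; exact two-sided permutation test, p = 0.0286 and adjusted p = 0.0635 for each; p = 0.13 within livers). The order was otherwise at the 26 CEBPa-specific regions of the full vehicle lists, where CEBPb was called in 38.5% to 57.7% and CEBPa in 23.1% to 42.3% of regions over the 4 TCPOBOP livers.

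Membership of the classes was compared between treatments over the 103360 regions merged from all 16 CEBP lists of 27 h. Of these, 3185 were CEBPb-specific after TCPOBOP (3.08%) and 957 after vehicle (0.926%). There were 233 regions that were so in both, which is 7.32% of the first and 24.3% of the second. The shared class held 13.9% of all regions after TCPOBOP and 15.7% after vehicle, and 12749 were in common, 88.4% of the first and 78.3% of the second. A class that needs 8 exact calls per treatment loses a region when 1 list deviates. Of the 3185 regions, 2007 (63.0%) had at least 1 CEBPa peak in a vehicle liver, and 130 (4.08%) had no CEBP peak in any vehicle liver. Over the 83477 regions with a peak in at least 1 TCPOBOP list, the same shares were 54.5% and 27.0%, and over the 30679 regions in all 4 CEBPb lists they were 92.7% and 0.704%. With equal length, 225 and 201 regions were CEBPb-specific after TCPOBOP and vehicle, and 11 were so in both.

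Along the series of regions with all 4 CEBPb lists, the vehicle difference narrowed step by step. With 0, 1, 2, 3 and 4 CEBPa lists in the TCPOBOP livers, the CEBPb rate of vehicle livers exceeded the CEBPa rate by 39.8, 33.7, 25.2, 15.5 and 2.79 points. The CEBPa rate went from 27.2% ± 6.86 to 43.9% ± 8.85, 61.4% ± 9.08, 78.5% ± 7.88 and 96.4% ± 1.92 (SD, n = 4). The CEBPb rate went from 67.0% to 99.2%. Along this series at 3 h, where CEBPa was the higher factor, the difference was -17.8, -24.4, -28.8, -29.6 and -13.0 points. It was thus larger at the regions with 1, 2 or 3 CEBPa lists than at the CEBPb-specific ones.

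At 3 h the order of the factors was reversed at the same regions. CEBPb was called at 9.35%, 3.61% and 19.1% of the 3187 regions in vehicle livers A44, A45 and A46 and at 18.1%, 18.5% and 8.47% in TCPOBOP livers D44, D45 and D46. CEBPa was called at 39.0%, 34.0% and 21.96% and at 27.1%, 38.6% and 23.2% in the same livers. The lowest CEBPa list lay above the highest CEBPb list. Over the 6 livers the means were 12.9% ± 6.57 and 30.7% ± 7.59 (SD, n = 6), a difference of -17.8 points (exact two-sided permutation test over 924 assignments, p = 0.00216; adjusted p = 0.0289; p = 0.0312 within livers). Within vehicle the difference was -21.0 points and within TCPOBOP -14.6 points (exact two-sided permutation test of 3 against 3, p = 0.1 each, the smallest possible). At all 83687 regions the rates at 3 h were 21.5% and 33.3%. With the rate of each list over all regions subtracted, the difference at the CEBPb-specific regions was -6.00 points (exact two-sided permutation test, n = 6, p = 0.00649; adjusted p = 0.0433).

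With equal length the 3 h difference was smaller. The means at the 226 regions were 23.2% ± 11.6 for CEBPb and 32.8% ± 8.51 for CEBPa (SD, n = 6), and the groups overlapped (exact two-sided permutation test, p = 0.13; adjusted p = 0.168), although CEBPa was higher in each of the 6 livers (p = 0.0312 for exact exchange within livers). The difference of the factors per liver was 33.6 points in vehicle livers of 27 h and -9.59 points at 3 h. The times differed by 43.2 points (exact two-sided permutation test over 10 livers, 4 against 6, p = 0.00476, the smallest possible; adjusted p = 0.0381), and with full lists by 57.6 points (the same p and adjusted p). Rates over all regions were not subtracted here. At all regions of full lists the factors differed by 12.7 points in vehicle livers of 27 h and by -11.8 points at 3 h. The 3 h and 27 h livers also differed in flow cell and in the age of the mice, which cannot be told apart from time. The 3 h livers of this test included TCPOBOP livers, while those of 27 h were vehicle livers only. CEBPb lists of 3 h held 11899 to 22984 peaks and those of 27 h vehicle livers 39275 to 47279.

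**Figure D4:**
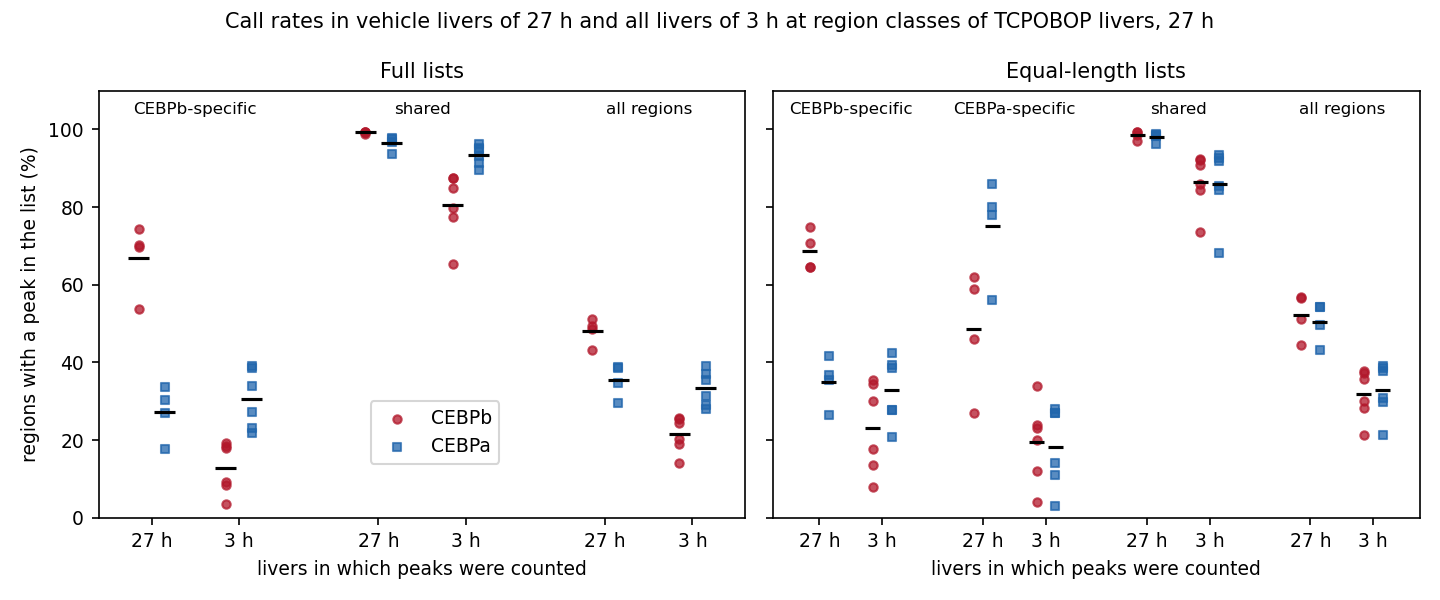
Call rate (percent of regions with a peak) of the CEBPb lists (circles) and CEBPa lists (squares) of vehicle livers of 27 h and of all livers of 3 h, at region classes defined in the TCPOBOP livers of 27 h; each point is a liver and each line a mean. At CEBPb-specific regions of full lists the circles lie above the squares at 27 h (53.7% to 74.3% against 17.8% to 33.8%) and below them at 3 h (3.61% to 19.1% against 21.96% to 39.0%).

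Shared regions were called at high rates by the 27 h lists and at lower rates by the CEBPb lists of 3 h. In vehicle livers of 27 h CEBPb was called at 99.2% ± 0.267 and CEBPa at 96.4% ± 1.92 of the 14420 shared regions (SD, n = 4). At 3 h the rates were 80.4% ± 8.40 and 93.4% ± 2.61 (SD, n = 6). The CEBPb rates of 3 h ran from 65.4% in A45 to 87.5%, and the CEBPa rates from 89.4% to 96.3%. With equal length the mean rates of the factors differed by 0.647 points at 27 h and by 0.577 points at 3 h. Single livers of 3 h differed more, with CEBPb called at 73.7% and CEBPa at 68.1% of the 11785 shared regions in A45.

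RXR, the partner of CAR and other nuclear receptors, was measured in the same livers with another antibody. At CEBPb-specific regions of the full lists an RXR peak was present in 29.997%, 25.2%, 20.3% and 25.5% of regions in D1 to D4. At shared regions the rates were 47.2%, 40.5%, 32.8% and 42.2%. Regions with all 4 CEBPb lists and 1, 2 or 3 CEBPa lists had mean rates of 24.4%, 23.4% and 26.1%. These were close to the mean of 25.2% at the CEBPb-specific regions, so that rate was not particular to regions without CEBPa. At all regions the mean was 17.5% ± 2.77 (SD, n = 4), so CEBPb-specific regions, at 25.2% ± 3.98, stood above all regions and below the shared ones in each of the 4 livers (exact within-liver permutation test, p = 0.13 for each comparison, the smallest possible; adjusted p = 0.167). Vehicle livers gave 25.4% ± 3.50 at the CEBPb-specific regions (SD, n = 4), a difference of -0.17 points from TCPOBOP (exact two-sided permutation test, p = 0.914; adjusted p = 0.935). The RXR rate at these regions therefore did not differ between the treatments beyond the spread of the livers.

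RXR was also read at the specific classes of equal-length lists, which the cut itself had made unlike in width. Only CEBPb lists were cut, by width, so the CEBPb-specific regions kept the widest CEBPb peaks. Nearly all CEBPa-specific regions came from the removal of narrower ones. At the 226 CEBPb-specific regions the rates were 53.1%, 47.3%, 38.9% and 49.1% in D1 to D4. At the 100 CEBPa-specific regions they were 10%, 7%, 5% and 9%. The means were 47.1% ± 5.96 and 7.75% ± 2.22 (SD, n = 4), a difference of 39.4 points, and vehicle livers gave 44.8% and 9.50%. With 1 list of a factor allowed to deviate the difference was 25.03 points at equal length. With full lists and 1 list allowed to deviate it was 15.8 points, over 14647 CEBPb-specific and 89 CEBPa-specific regions. The CEBPb-specific regions were wider, with a median of 482.5 bp against 291 bp, and a wider region is more easily overlapped. When a peak had to cover at least 50% of a core of 200 bp, the rates were 32.8% and 6.06%. When the CEBPb lists were thinned at random instead, the difference turned to -11.5 points, with 26.01% at 247 CEBPb-specific and 37.5% at 656 CEBPa-specific regions. The full lists held 1 CEBPa-specific region, so nearly all of the 656 came from CEBPb peaks lost to the draw. Their RXR rate of 37.5% lay near the 40.7% at shared regions of the full lists. The 26.01% lay near the 25.2% at CEBPb-specific regions of the full lists. The direction of the difference between these classes therefore depended on how the lists were cut. Each cut made the CEBPa-specific class by removing CEBPb peaks, so neither could show whether RXR differed between the factors.

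RXR was then read by decile of peak width in the full lists. CEBPb lists were the longer ones there, so whether a peak of the other factor was missing still depended on list length. CEBPa peaks that lacked a CEBPb peak in the same liver had few RXR peaks at any width. In the narrowest decile of the CEBPa list, RXR was found at 3.27% ± 0.379 of CEBPa peaks without CEBPb and at 18.5% ± 4.74 of those with CEBPb (SD, n = 4). In the fifth decile the values without CEBPb were 5.96%, 1.91%, 4.19% and 6.94% in D1 to D4, over 72 to 310 peaks, and those with CEBPb were 30.6%, 23.9%, 18.95% and 31.5%. The groups did not overlap in either decile. In the upper deciles CEBPa peaks without CEBPb were few, down to 5 in a liver. For CEBPb peaks, the presence of CEBPa went with little difference at low widths, with 9.30% ± 1.64 without and 8.33% ± 2.48 with CEBPa in the narrowest decile. In the widest decile, RXR was found at 38.5% ± 5.28 of the CEBPb peaks without CEBPa and at 55.2% ± 6.18 of those with it (SD, n = 4). Vehicle livers gave 4.85% ± 0.611 and 19.1% ± 3.22 for the narrowest CEBPa peaks without and with CEBPb, and 37.8% ± 9.91 and 56.6% ± 7.02 for the widest CEBPb peaks without and with CEBPa (SD, n = 4).

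**Figure D5:**
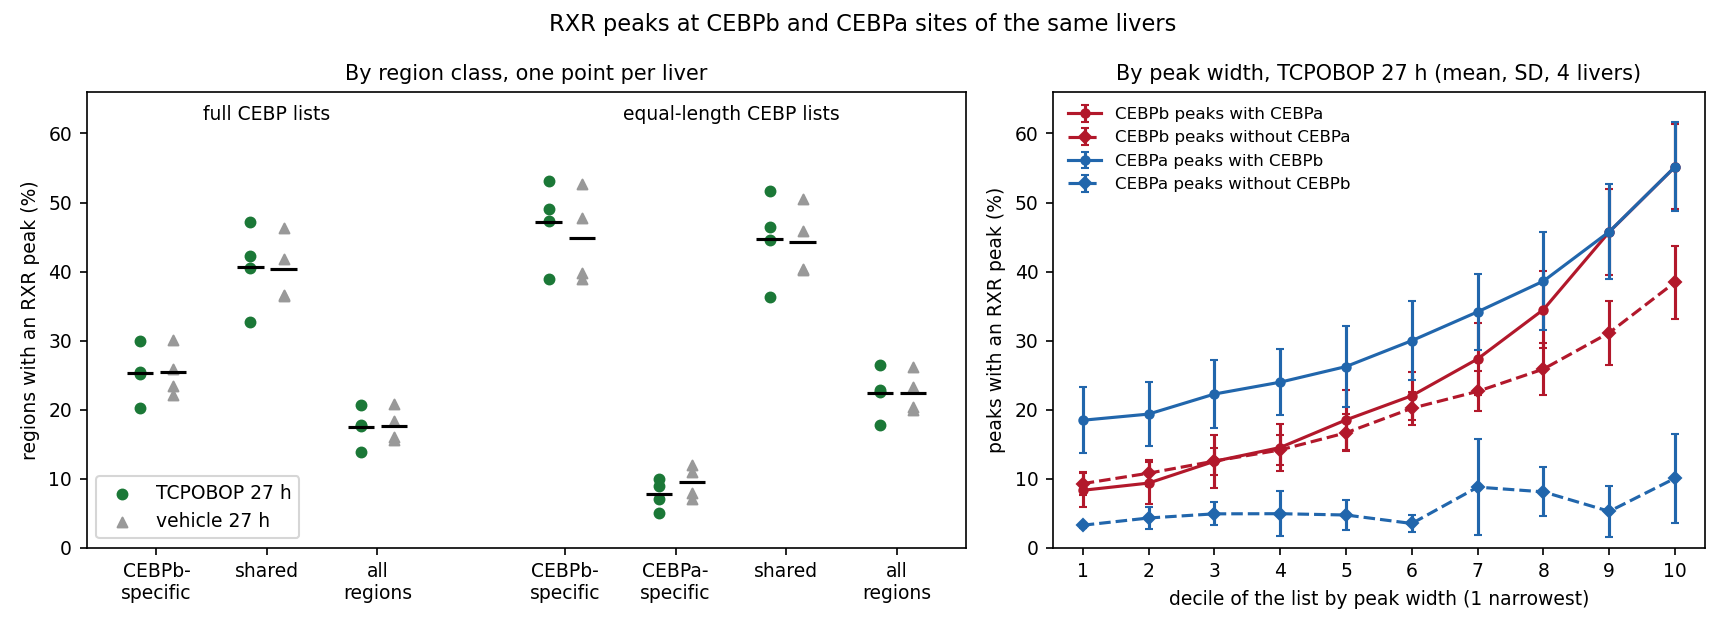
Left, percent of regions with an RXR peak by class, from full and equal-length CEBP lists, with a point per TCPOBOP liver (circles) and vehicle liver (triangles) of 27 h and a line at each mean. Right, percent of CEBPb and CEBPa peaks of the TCPOBOP livers with an RXR peak in the same liver, by decile of peak width, with (solid) and without (dashed) a peak of the other CEBP factor; points are means and bars SDs over 4 livers. CEBPa peaks without CEBPb lie lowest in every decile, from 3.27% in the narrowest to 10.1% in the widest.

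Input controls had little overlap with any class. A peak of at least 1 of the 4 input lists overlapped 28 of the 3187 CEBPb-specific regions (0.879%), 137 of the 14420 shared regions (0.950%) and 449 of all regions (0.537%). The inputs came from livers of 3 h and none from livers of 27 h.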

How the data were processed

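Peaks were called from chromatin immunoprecipitation sequencing of individual mouse livers with antibodies to CEBPb, CEBPa and RXRa, per the labels' protocols. Reads were handled with Bowtie2 2.3.2 and MACS2 (version not given in the sources used here) on mm9, per the submitters' processing notes. The authors deposited 1 list of positions per library, with no score, summit, p-value or read count, so depth is unknown and width was the only value of a peak. Positions are printed counted from 1.

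Here, peaks overlapping by at least 1 bp were merged, and regions were counted by the lists that call them. For equal length, the longer list of each liver was cut to the shorter by keeping its widest peaks, or at random as an alternative. Peaks cover binding above a caller's threshold, so a region without a peak may still hold signal. Values per library were compared with exact two-sided permutation tests, with Benjamini-Hochberg adjustment over 40 tests. Each animal is 1 replicate. CEBPb and CEBPa lists of the same number come from the same liver, which pairs them. The mean Jaccard index was 0.445 within and 0.438 between livers, and 0.555 and 0.525 at equal length. A one-sided exact permutation test over 24 pairings gave p = 0.0417 for both, the smallest possible, and was not among the 40 adjusted tests. Correlations of region calls about their group means were 0.012 to 0.039 within a liver and -0.0215 to 0.0159 between livers. These ranges overlapped, with CEBPb of D2 and CEBPa of D4 at 0.0159. No pair of the 8 lists shared more than 0.0245% of peaks with identical bounds, so none looked like a copy.

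The members and lists were chosen with earlier results of these data known. Named regions were the first 10 per class by mean percentile of peak width within its list, from equal-length lists for the specific classes, in order and to the extent space allowed, and the 5 windows of 200 kb with most CEBPb-specific regions. The single CEBPa-specific region of the full lists was named because it was the only one. The seventh CEBPa-specific region of equal-length lists was named because it alone of the first 10 had RXR peaks. The comparison of RXR between specific classes used equal-length lists, since full lists gave 1 CEBPa-specific region; this, the classes of the vehicle livers, the test between times, the deciles of width and the regions restricted to the CEBP libraries of 27 h were chosen after the data were seen. Gene groups, sequences and motifs need mm9 annotation or sequence and were not analysed here. Functions were tested on simulated lists. Scripts ran under Python 3.11.15 with pandas 2.3.3, scipy 1.17.1 and numpy 2.4.6.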

Additional observations from a re-analysis of the deposited data

Results flagged for a closer look

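The CEBPa list of liver D4, with 20396 peaks, lay far below the 28818 to 29066 peaks of the other CEBPa lists after TCPOBOP. The CEBPa list of D4 was also far from the others at the CEBPb-specific regions of the vehicle livers, with a call rate of 9.99% against 19.4% to 20.7%. Of 38 groups of samples looked at in this way, 2 were singled out, and chance alone would single out about 1 in 20.

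The difference of CEBPb and CEBPa call rates at CEBPb-specific regions differed between 27 h vehicle livers and 3 h livers by 57.6 points with full lists (39.8 against -17.8 points) and by 43.2 points with lists of equal length (33.6 against -9.59 points), each with p = 0.00476 in an exact permutation test over 10 livers and an adjusted p of 0.0381. At all regions of full lists the factors differed by 12.7 points in these 27 h livers and by -11.8 points at 3 h. With equal length the differences at all regions were 1.95 and -1.17 points. The comparison of the times did not subtract the rates over all regions. Flow cell and age of the mice go with time here and cannot be told apart from it. The 3 h livers also included TCPOBOP livers, while those of 27 h were vehicle livers only.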

How the results depend on the processing

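Exchange of the factors within livers, the replicate block, kept each value and gave an exact permutation p of 0.13, the smallest 4 pairs allow, for list length (0.93 on the log2 scale), median width (7.5 bp), the call rate difference in vehicle livers (39.8 points) and that of vehicle-defined regions in TCPOBOP livers (64.0 points); at 3 h (-17.8 points) it gave an exact p = 0.0312. Leaving out 1 liver gave 0.81 to 1.01, 6.33 to 9 bp, 34.4 to 45.2 points and 58.5 to 65.8 points for the first 4, with an exact p = 0.1, the smallest for 3 against 3, where a tested liver was dropped. The 3 h difference was -9.59 points at equal length, with an exact permutation p = 0.13 between lists and 0.0312 within livers. With random thinning it was -6.95 points (exact permutation p = 0.0693 between lists), and with all lists cut to the shortest -9.06 points (exact permutation p = 0.0152). The difference in log2 ratio between treatments stayed short of the threshold without the narrowest peaks of each list and with any 1 liver left out. The exact permutation p ran from 0.0571 to 0.114.

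CEBPb-specific regions numbered 226 at equal length, 247 with random thinning, 217 with all lists cut to the shortest, 14647 when 1 list of a factor could deviate, and 4935 to 6275 without 1 liver. The CEBPa-specific numbers were 100, 656, 152, 89 and 4 to 26, and 0 without the narrowest 25% of each list. Shared regions numbered 1101 with random thinning and 8955 with lists cut to the shortest. The RXR difference of 39.4 points turned to -11.5 points with random thinning and was 15.8 points for full lists with 1 list allowed to deviate, against 25.2 points for full lists, where the CEBPa-specific class is 1 region. Removing peaks that overlap an input peak moved none of these counts by over 1.5 times. Depth is unknown, and a list without a score cannot show whether a missing peak fell just short of the caller's threshold.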
